A study of Mus musculus with 18 samples.

Results

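The regions described here were the 668 bins of 200 bp, among 12361722 on mouse chromosomes 1 to 19 (0.0054%), that were high for C/EBPα only within the first hour after its induction. They were selected on their C/EBPα reads, scaled to 10000000 reads per library (normalized reads): 15 or more in at least 1 of the libraries taken at 10, 30 and 60 min, and 4 or less in each of the libraries of 3, 12, 24 and 48 hours post-induction (hpi). The C/EBPα values of these 7 libraries are therefore given as a description. The 668 early-only bins made up 4.06% of the 16466 bins that reached 15 in at least 1 library of the first hour. Bins that touch share reads and can belong to 1 site: the 668 bins formed 625 separate stretches, of which 584 held 1 bin, 39 held 2 and 2 held 3. They lay on all 19 autosomes, with between 11 bins (chromosome 19) and 59 bins (chromosome 1) on each.

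The cells were C10, a derivative of the HAFTL mouse pre-B cell line that carries a fusion of C/EBPα with the estrogen receptor and GFP (C/EBPαER-GFP). Per the labels they received 100 nM of β-estradiol (β-Est), which moves the fusion into the nucleus, with IL-3 and CSF-1 at 10 nM each, and control cells received 0.1% ethanol as solvent. The methods of the study give the same number for β-Est in micromolar, so that the stated doses conflict and the dose used is uncertain. Libraries were told apart by factor and time alone. All libraries come from the same fusion-carrying line, so that every group shares the transgene. ChIP-seq measured C/EBPα in 8 libraries (0 hpi and the 7 times above) and C/EBPβ and PU.1 in 5 libraries each (0, 3, 12, 24 and 48 hpi). There was 1 library per factor and time, no time point had a replicate, and no test between libraries was possible. The 95% intervals below (exact Poisson for reads, exact Clopper-Pearson for shares) cover counting error only. RNA was not measured in these libraries, so the pre-B identity of the cells could not be checked against marker genes.

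C/EBPα is a basic leucine zipper factor that drives the granulocyte and macrophage program, and it turns C10 cells into macrophage-like cells within days. It binds as a dimer to palindromes that begin with TTGC or end in GCAA. C/EBPβ is a related factor that reads the same sequence, and PU.1 is an ETS factor, present in pre-B cells at low levels, which shares many myeloid regulatory regions with C/EBPα. An activated factor can occupy a region for a short time only, and such transient binding is what the rule looks for.

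The reads of the 10, 30 and 60 min libraries were 50 bases long and came from the Hiseq2000 sequencer, whereas the other C/EBPα libraries had 36-base reads from the GA IIx. C/EBPβ reads were 40 bases long and PU.1 reads 36. Early time and sequencer therefore cannot be told apart in C/EBPα, and the bins that were high only early were also high only in the long-read libraries. Kept reads numbered 5970869 to 24917810 per C/EBPα library, so that the limit of 4 stood for 2.39 reads at 12 hpi and 4.45 reads at 3 hpi, and the threshold of 15 for 19.5 reads at 30 min and 37.4 reads at 10 min. Fragments estimated from the distance between strands were 184 to 192 bp long in the 3 early libraries and 121 to 152 bp in those of 3 to 48 hpi.

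The sequences of 4 bins with a C/EBP consensus (TTGCNNAA on either strand) that were among the most strongly bound are shown first, because they hold the factor's own recognition sequence. They were read from the mm9 reference, plus strand, and capitals mark the consensus. The first 2 also had the highest C/EBPα value of all bins named here.
Slc25a13, chr6:5947801-5948000: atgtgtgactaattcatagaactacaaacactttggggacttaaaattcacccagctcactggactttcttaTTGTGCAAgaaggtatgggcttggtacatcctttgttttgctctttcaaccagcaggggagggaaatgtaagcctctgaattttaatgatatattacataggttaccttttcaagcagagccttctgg
Hsfy2, chr1:56770001-56770200: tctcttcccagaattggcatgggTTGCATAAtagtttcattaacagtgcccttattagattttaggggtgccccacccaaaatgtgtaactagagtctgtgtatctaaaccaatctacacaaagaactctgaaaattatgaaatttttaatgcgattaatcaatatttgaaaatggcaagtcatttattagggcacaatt
Zw10, chr9:48866601-48866800: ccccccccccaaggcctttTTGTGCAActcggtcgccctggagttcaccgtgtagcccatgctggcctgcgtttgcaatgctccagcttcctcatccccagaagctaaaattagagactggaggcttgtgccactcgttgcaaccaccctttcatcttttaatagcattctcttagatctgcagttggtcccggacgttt
Ociad1, chr5:73678001-73678200: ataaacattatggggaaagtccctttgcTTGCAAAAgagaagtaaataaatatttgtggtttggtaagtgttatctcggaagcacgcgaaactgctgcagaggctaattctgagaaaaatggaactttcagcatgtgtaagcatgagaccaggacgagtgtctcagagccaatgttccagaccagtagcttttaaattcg
The next 2 bins are shown because they were strongly bound in the first hour without a match to that consensus.
Cpeb2, chr5:43429001-43429200: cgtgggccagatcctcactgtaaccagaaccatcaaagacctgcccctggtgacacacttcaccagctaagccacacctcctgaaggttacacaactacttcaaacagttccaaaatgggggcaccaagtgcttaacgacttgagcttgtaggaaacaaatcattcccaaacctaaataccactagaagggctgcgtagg
Med9, chr11:59726601-59726800: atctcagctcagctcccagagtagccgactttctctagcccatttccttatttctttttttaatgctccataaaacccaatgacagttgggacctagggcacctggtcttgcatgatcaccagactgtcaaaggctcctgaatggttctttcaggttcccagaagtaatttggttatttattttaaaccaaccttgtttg
The last 3 had a gene of B cells as their nearest gene or carried PU.1 from the start. Capitals mark the C/EBP consensus in the bins near *Cd22* and *Lef1*, which has 2 copies, and the PU.1 consensus GAGGAAGT in the bin near *Nck1*.
Cd22, chr7:31676001-31676200: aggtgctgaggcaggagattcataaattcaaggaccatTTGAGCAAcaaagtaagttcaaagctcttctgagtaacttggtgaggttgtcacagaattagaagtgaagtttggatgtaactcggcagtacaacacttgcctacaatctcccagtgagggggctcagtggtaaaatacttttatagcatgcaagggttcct
Lef1, chr3:130649401-130649600: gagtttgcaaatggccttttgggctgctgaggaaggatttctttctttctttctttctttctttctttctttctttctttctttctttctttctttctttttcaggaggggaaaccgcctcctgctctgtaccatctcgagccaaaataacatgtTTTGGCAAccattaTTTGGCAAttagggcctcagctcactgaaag
Nck1, chr9:100425801-100426000: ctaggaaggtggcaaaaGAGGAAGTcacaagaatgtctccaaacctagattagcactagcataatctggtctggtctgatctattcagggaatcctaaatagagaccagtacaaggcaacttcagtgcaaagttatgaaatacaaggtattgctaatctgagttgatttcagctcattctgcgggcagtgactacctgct

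C/EBPα in the early-only bins was highest at 30 and 60 min, with a low value at 10 min, and from 3 hpi it was held low by the limit of 4. The median was 1.13 normalized reads at 0 hpi, 4.01 at 10 min, 17.7 at 30 min and 16.9 at 60 min. It was 2.70 at 3 hpi, 1.67 at 12 hpi, 1.32 at 24 hpi and 1.26 at 48 hpi. At 3 hpi 466 of the 668 bins (69.8%) were above their 0 hpi value, although the rule capped the 3 hpi value at 4. The share of all bins above their 0 hpi value at 3 hpi was not counted, so that this share has no background. The 10 min library was the lowest of the early 3 by far, and 21 of the 668 bins reached 15 in it, where 0.0248% of all bins did. At 30 min 462 bins did (0.103% of all bins) and at 60 min 459 (0.119%). Both the 30 and the 60 min value passed in 244 bins that were below 15 at 10 min and in 10 that passed in all 3 libraries, whereas 199 bins passed at 30 min alone and 204 at 60 min alone. The highest value of a bin fell at 30 min in 347 bins, at 60 min in 317 and at 10 min in 4.

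**Figure D1:**
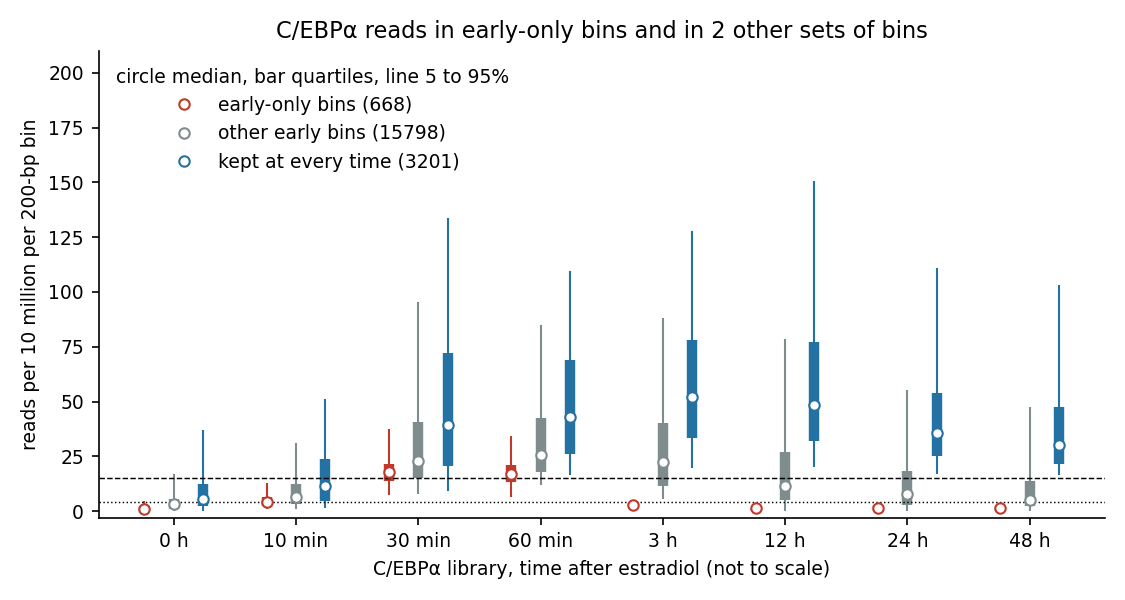
normalized C/EBPα reads in each 200-bp bin (vertical axis) for the 8 C/EBPα libraries (horizontal axis, times not to scale). Circles are medians, thick bars the quartiles and thin lines the 5th to 95th percentile over the bins of each set. The dashed line is the threshold of 15 and the dotted line the limit of 4 that chose the early-only bins, whose median was 17.7 at 30 min and 2.70 at 3 hpi.

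**Figure D2:**
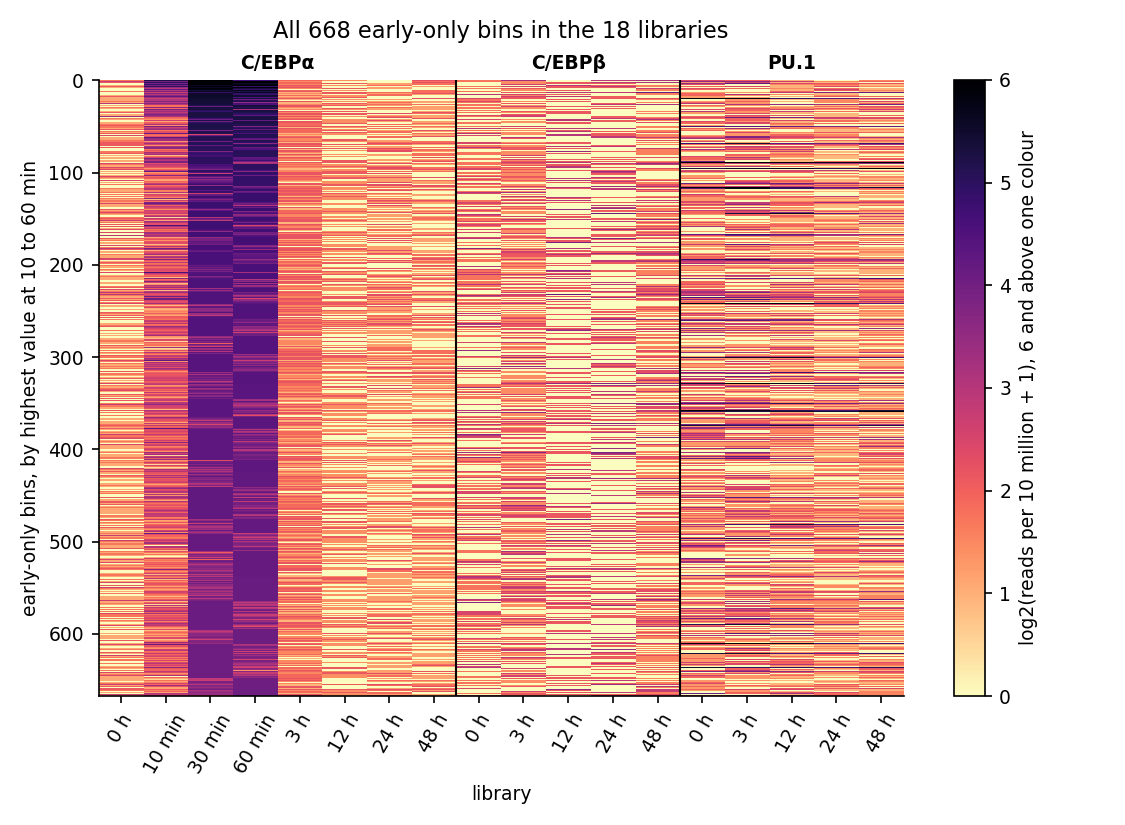
Every early-only bin (row, ordered by its highest value at 10 to 60 min) in each of the 18 libraries (column), as log2 of the normalized reads plus 1. The 30 and 60 min columns of C/EBPα stand out over the whole height, the C/EBPβ columns stay pale, and a few rows are dark in all 5 PU.1 columns.

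Each bin is named by the gene with the nearest annotated transcription start site (TSS), and an intron that holds it can belong to another gene. The single highest bin was intronic and lay 195 kb from its nearest TSS, that of *Slc25a13*, a mitochondrial aspartate and glutamate carrier. Its scaled value was 0 at 0 hpi, 24.9 at 10 min, 98.4 at 30 min and 90.6 at 60 min. After the first hour it was 3.59 at 3 hpi, 3.35 at 12 hpi, 2.64 at 24 hpi and 1.26 at 48 hpi. These values came from 0, 62, 128 and 177 reads before and during the first hour, and from 4, 2, 2 and 1 reads after it. The early reads were on both strands, with 80 plus and 97 minus reads at 60 min, and neither PU.1 (0 to 1.52) nor C/EBPβ (0 to 6.89) reached 15 there at any time. Bins of chromosome 18 are not named here, and the 10 highest bins below are those of the other autosomes.

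The intergenic bin 75.8 kb from the TSS of *Hsfy2* had 5, 35, 82 and 145 C/EBPα reads at 0 hpi, 10, 30 and 60 min, and 2, 0, 0 and 2 reads at 3, 12, 24 and 48 hpi. Its neighbour on one side was a member as well, with 37.7 normalized reads at 30 min, and only the bin shown holds the consensus. The intronic bin nearest *Zw10*, which codes for a protein of the kinetochore, gave 1, 26, 62 and 117 reads up to 60 min and 4, 0, 1 and 0 from 3 hpi. The bin 5.93 kb from the TSS of *Ociad1* went from 0 to 18, 55 and 97 reads and then to 3, 1, 0 and 2. In the latter 3 bins the 60 min value was above the 30 min value.

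Among the bins without the consensus, the one nearest *Cpeb2*, which codes for a regulator of mRNA translation, had, together with the *Zdhhc19* bin, the highest value at 10 min of the 10 highest bins (31.3). It had 3, 78, 93 and 138 C/EBPα reads up to 60 min and 3, 0, 0 and 3 after it. The bin near *Med9*, a Mediator subunit, had 0, 34, 87 and 89 reads, then 3, 2, 1 and 2. PU.1 passed 15 there in a single library, with 9.93 at 0 hpi, 18.3 at 3 hpi and 4.67 at 12 hpi. The remaining 4 of the 10 highest lay near *Pik3r4*, *Kcna4*, *Zdhhc19* and *Cmah*, with their highest scaled values between 58.4 and 61.5. The *Zdhhc19* bin bordered on a bin that had 15 or more normalized C/EBPα reads at 3 to 48 hpi.

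Most early-only bins stood nearer to the threshold than these 10. The 3 members nearest the threshold had a highest early value of 15.4, and the 3 bins just below it had 14.8. On the late side the 3 members nearest the limit had 3.95, and the 3 bins just above it had 4.49. Over the 4 libraries of 3 to 48 hpi together an early-only bin had a median of 5 reads and at most 12, against a median of 23 reads at 30 min alone and 33 at 60 min. Only 9 bins had no read in any of the 4 late libraries, and 57 had none at 12, 24 and 48 hpi. Pooled over the 4 late libraries the early-only bins held 1.64 normalized reads each, against 0.788 to 0.790 for an average bin of the genome.

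The rule was applied again with 1 library left out at a time, and the value in the library that had no part in the choice was then read. Without the 30 min library 469 bins were chosen, and their median in it was 16.9, with 263 at 15 or more and 4 at 4 or less. Without the 60 min library 464 bins were chosen, and their median in it was 15.9, with 255 at 15 or more and 1 at 4 or less. For the 10 min library 667 bins were chosen, with a median of 4.01 and 20 at 15 or more. The 30 and 60 min libraries thus gave each other's bins a median far above the genome mean of 0.787. The 10 min median was above that mean as well. At 4 or less were 332 of 667 bins at 10 min, against 4 of 469 at 30 min and 1 of 464 at 60 min.

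The later libraries differed among themselves in the same comparison. Bins chosen without the 12 hpi library (803) had a median of 1.67 in it, those chosen without 24 hpi (711) one of 1.32, and those chosen without 48 hpi (699) one of 1.26, and none of these bins reached 15 in the library left out. Without the 3 hpi library 3116 bins were chosen in place of 668, and their median at 3 hpi was 8.09. Of the 3116 bins, 668 had 4 or less at 3 hpi, 1639 had more than 4 and less than 15, and 809 had 15 or more. Most of the early bins at 4 or less from 12 hpi on were thus above that limit at 3 hpi, and the 3 hpi library set the number of early-only bins. Depth did so as well: with the C/EBPα libraries thinned to 5970869 reads each, the rule chose 1157 bins. Only 500 of these were among the 668, so that membership also changed with depth.

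C/EBPβ at 3 hpi, which had no part in the rule, followed the same division. Its mean in the 668 early-only bins was 2.18 normalized reads, against 4.27 in the 1639 bins with intermediate C/EBPα at 3 hpi and 10.5 in the 809 bins still at 15 or more. No early-only bin reached 15 normalized C/EBPβ reads at 3 hpi (0%, interval 0 to 0.551%), where 0.0556% of all bins and 33.3% of the other early bins did. In the intermediate bins 12 did (0.732%) and in the bins still high for C/EBPα 161 (19.9%, interval 17.2 to 22.8%). The C/EBPα medians of the 3 classes were 17.7, 17.7 and 19.2 at 30 min and 16.9, 19.4 and 25.6 at 60 min, and their means at 0 hpi were 1.54, 2.05 and 2.38.

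C/EBPβ stayed low in the early-only bins over the whole time course. Its mean was 1.79 at 0 hpi (interval 1.63 to 1.95), 2.18 at 3 hpi (2.04 to 2.33), 1.73 at 12 hpi, 1.80 at 24 hpi and 2.00 at 48 hpi (1.85 to 2.16). From 0 to 3 hpi this was a ratio of 1.22 (1.09 to 1.37) and from 0 to 48 hpi a ratio of 1.12 (0.997 to 1.26). In the other early bins these ratios were 2.54 (2.51 to 2.57) and 3.97 (3.92 to 4.01). The intervals cover counting error only and do not test a change between libraries. At 12, 24 and 48 hpi 1 bin each reached 15, where 0.0586%, 0.114% and 0.148% of all bins did. The bin at 12 hpi lay near *Faf1* (17.2), that at 24 hpi near *Hipk1* (16.0) and that at 48 hpi near *Eea1* (17.7), which bordered on a bin of 15 or more normalized C/EBPα reads at 3 to 48 hpi. These 3 bins were chosen for naming after their values were seen. With 2903580 to 5844202 reads per C/EBPβ library, a value of 15 stood for 4.36 to 8.77 reads, so that a weak signal in a single bin was not detectable at this depth. Over all 668 bins the C/EBPβ mean was 2.27 times the mean of all bins at 0 hpi, 2.77 times at 3 hpi and 2.54 times at 48 hpi. The mean of all bins includes bins whose reads seldom occur once in mm9, and their part in these ratios was not tested.

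**Figure D3:**
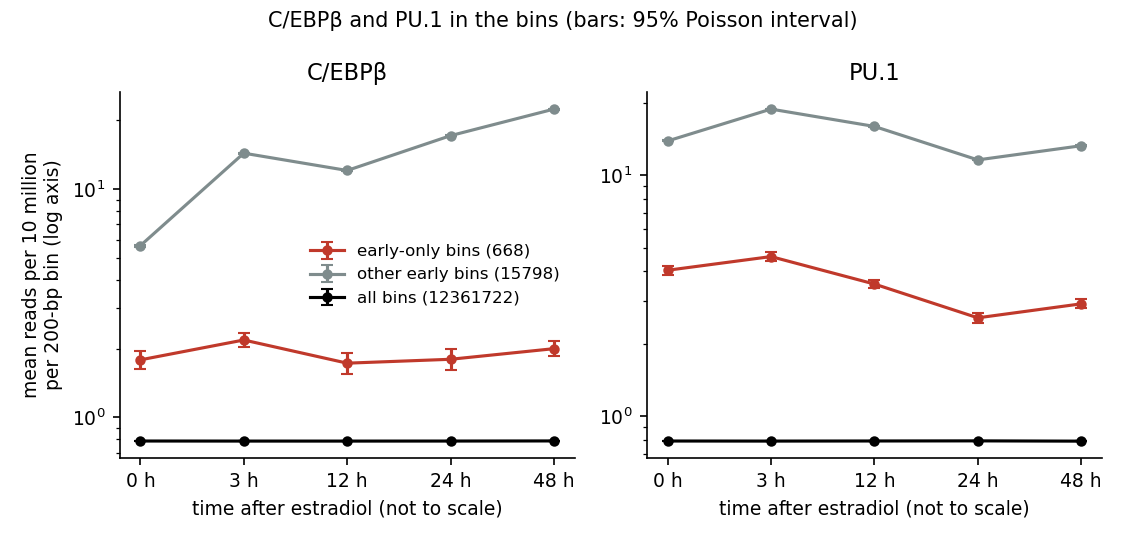
Mean normalized C/EBPβ (left) and PU.1 (right) reads in each 200-bp bin, on a log axis, in the 5 libraries of each factor (horizontal axis, times not to scale). Bars are 95% Poisson intervals of the mean. C/EBPβ went from 1.79 to 2.00 in the early-only bins and from 5.65 to 22.4 in the other early bins between 0 and 48 hpi, and PU.1 went from 4.04 to 2.93 and from 13.9 to 13.3.

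Before induction C/EBPα itself was low in the early-only bins, but above the genome mean. The 0 hpi library, which the rule did not use, had 910 reads in them, a mean of 1.54 normalized (interval 1.44 to 1.64) or 1.95 times the mean of all bins. At 2 kb on either side the mean was 1.03 and 1.22. All bins include more that few reads can be placed in: in 14.6% of every 500th bin of the genome fewer than 50% of 36-base reads occur once in mm9. This held for 0.898% of the early-only bins, and its part in the ratio was not tested. No early-only bin reached 15 at 0 hpi, the highest being 10.1, against 6.44% of the other early bins and 0.00997% of all bins. The mean at 48 hpi was 1.25, a value that the rule capped, whereas it left the 0 hpi value free. In the 3201 early bins that kept 15 or more in every library of 3 to 48 hpi, called kept bins below, the mean at 0 hpi was 10.9. The kept bins are part of the 15798 other early bins, of which 12597 were not kept. At 10 min, in a library that took part in the rule and came from the other sequencer, 574 of the 668 early-only bins (85.9%) were above their 0 hpi value, as were 76.6% of the other early and 71.5% of the kept bins. That library was also deeper, with 24917810 kept reads against 8868524 at 0 hpi. Of all bins 27.2% had no read at 10 min and 56.4% had none at 0 hpi. The share of all bins above their 0 hpi value was not counted, so that these shares have no background.

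The rule asked for a high early value in the bin and not in its neighbours, so that a higher centre was set by the choice. At 30 min the mean was 19.02 in the bin, 9.74 and 10.0 in the bins on either side and 1.56 at 2 kb before it. At 3 hpi the mean was 2.29 in the bin and 3.20 and 3.09 beside it, which is a dip set by the rule, since the limit applied to the bin and not to its neighbours. Of the 668 bins, 370 had more than 4 normalized reads in the bin beside them in at least 1 late library, and 45 (6.74%) bordered on a bin of 15 or more. Within 1 kb the latter number was 88 (13.2%). Of all bins, 0.0562% (48 hpi) to 0.139% (3 hpi) were at 15 or more in a single late library. The share of all bins with such a neighbour was not counted, so that these numbers have no background share of their own. Where the limit of 4 was put on both neighbours as well, 298 bins were left.

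**Figure D4:**
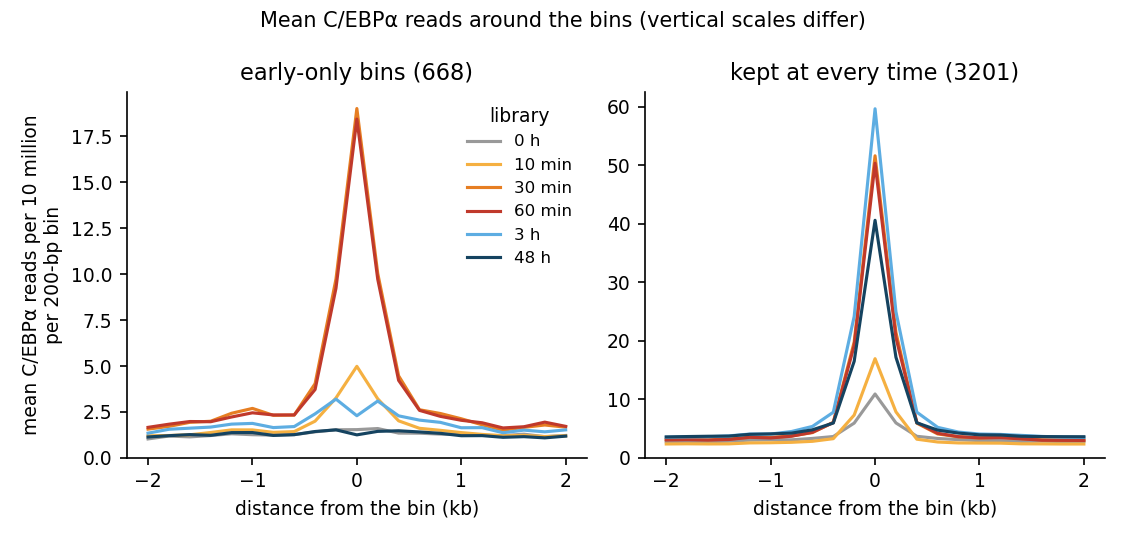
Mean normalized C/EBPα reads in each 200-bp bin (vertical axis, scales differ) against distance from the bin in kb, for 6 of the 8 libraries. In the early-only bins (left) the 30 and 60 min lines peak at 19.02 and 18.4 and the 48 hpi line is flat, while in the kept bins (right) the line of 3 hpi reaches 59.7. The libraries of 12 and 24 hpi are not drawn; at 12 hpi the kept bins had a mean of 61.6.

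Reads on both strands made up the early signal. At 30 min 49.8% of the reads in the early-only bins were on the plus strand (interval 49.0 to 50.6%) and at 60 min 49.7%. Of the 462 bins at 15 or more at 30 min, 454 had at least 5 reads on each strand, and 2 had 90% or more of their reads on 1 strand. At 60 min these numbers were 457 and 2 of 459. Uniqueness was counted for the length of the late C/EBPα reads: a median of 100% of the 36-base reads that could fall into an early-only bin occur once in mm9, and 630 of the 668 bins (94.3%) had at least 90% unique reads at that length. The share was 95.1% in the other early bins, 93.6% in the kept bins and 72.7% in every 500th bin of the genome. At 50 bases 645 bins passed, and 6 bins had fewer than 50% unique 36-base reads.

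The C/EBP consensus was found in 165 of the 668 early-only bins (24.7%, interval 21.5 to 28.2%), 2.66 times as often as in all bins of the same length (9.28% of 11968110 without an undetermined base). The share was higher in the other early bins, at 29.1% (28.4 to 29.9%), and highest in the kept bins, at 38.6% (37.0 to 40.4%). The 3 intervals did not overlap, but the kept bins are part of the other early bins and raise their share. Of the 15798 other early bins 4603 had the consensus, and 1237 of these 4603 were kept bins. A separate share for the other early bins that were not kept was not computed. The gap between the early-only and the other early bins therefore cannot be read apart from the kept bins. The step from the early-only to the other early bins depended on the rule, however: with a limit of 2 in place of 4 at 3 to 48 hpi the share was 31.5% of 162 bins (24.4 to 39.2%), and with the limit of 4 on both neighbours as well it was 30.9% of 298 bins (25.7 to 36.5%). In bins with an early maximum of 15 to 20 the share was 24.6% in the early-only and 25.01% in the other early bins, and at 20 to 30 it was 26.1% and 25.6%. At 30 or more it was 22.2% (14.5 to 31.7%) and 33.7% (32.6 to 34.8%). The last class has no upper end and held only 99 early-only bins, and the other early bins reached higher values in it, so that it does not compare the sets at equal early level. Copies numbering 2 or more were found in 16 early-only bins (2.40%), in 3.56% of the other early, 5.84% of the kept and 0.489% of all bins.

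The forms of the consensus differ in their middle 2 bases. TTGCATAA, with AT in the middle, stands in the *Hsfy2* bin, and the *Slc25a13* and *Zw10* bins both hold TTGTGCAA, whose other strand has AC in the middle. The AC form was the most frequent in each set: it was in 32 of the 165 early-only bins with a consensus (19.4%), in 18.5% of such other early bins and in 24.8% of such kept bins. Next in the early-only bins came AA and TT, with 21 bins each.

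**Figure D5:**
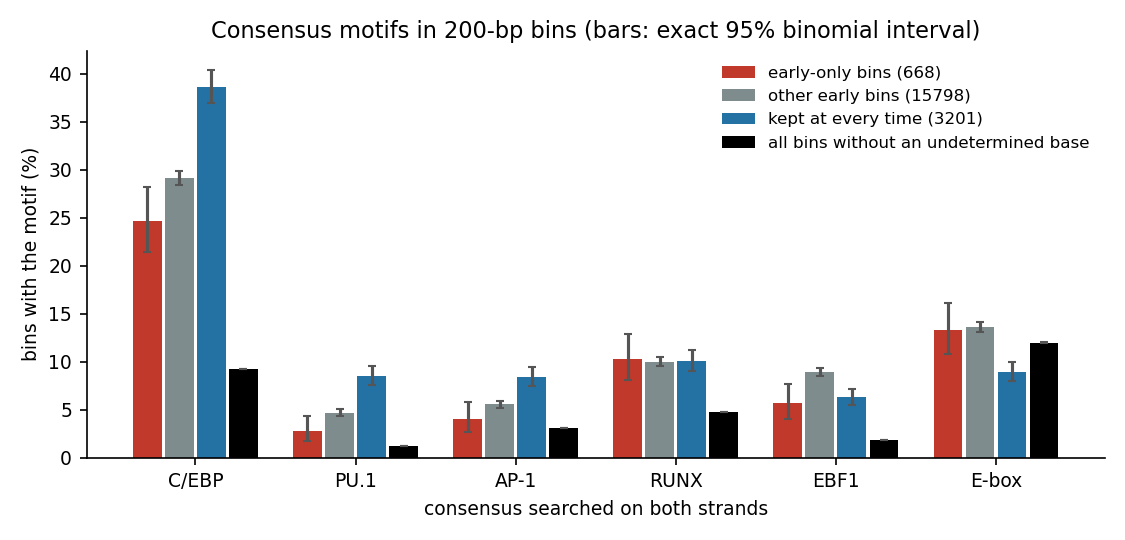
Share of bins in percent (vertical axis) that hold each of 6 consensus motifs on either strand, for the early-only, the other early, the kept and all bins. Bars are exact 95% binomial intervals. The C/EBP consensus was in 24.7% of the early-only bins, 38.6% of the kept bins and 9.28% of all bins.

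Consensus sequences of other factors were searched in the same way. GAGGAAGT, the PU.1 form, was in 2.84% of the early-only bins (1.72 to 4.41%), 4.70% of the other early bins, 8.50% of the kept bins and 1.20% of all bins. The AP-1 form TGACTCA, read by Fos and Jun proteins, was in 4.04% (2.68 to 5.83%), 5.57%, 8.47% and 3.14%, so that the early-only interval held both the other early share and that of all bins. RUNX (TGTGGTT), a motif of B cell and myeloid enhancers, was in 10.3% (8.13 to 12.9%), 10.0%, 10.1% and 4.73%. The EBF1 form TCCCNNGGG, named for a factor that specifies B cells, was in 5.69% of the early-only bins (4.06 to 7.72%) against 8.91% of the other early, 6.31% of the kept and 1.87% of all bins. The E-box CAGGTG was in 13.3% of the early-only bins (10.8 to 16.1%), 13.6% of the other early, 8.97% of the kept and 12.0% of all bins.

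Motifs that are infrequent in the genome gave too few bins to compare. The SP1 form GGGGCGGGG was in 2 early-only bins (0.299%, against 0.354% of all bins) and the NF-kB form in 2 as well (0.299% and 0.516%). The CRE form TGACGTCA was in 3 (0.449%, interval 0.0927 to 1.31%), against 0.111% of all bins. CCAAT, the NFY form, is frequent and was in 24.7% of the early-only bins (21.5 to 28.2%) and 29.1% of all bins. The ETS form CCGGAAGT and the YY1, CTCF and NRF1 forms, which were in 0.124%, 0.0190%, 0.0522% and 0.0126% of all bins, were in none of the early-only bins. Neither was the palindromic estrogen response element with a spacer of any bases, which was in 0.0179% of all bins and 4 of the 15798 other early bins. A count of 0 among 668 bins allows a share of up to 0.551%, which is above each of these shares of all bins. The median GC content of the early-only bins was 42%, equal to that of all bins (42%), and it was 46% in the other early and 48% in the kept bins. GC content thus differed between the sets, and its part in the result was not tested. Below a GC content of 40% the C/EBP consensus was in 28.7% of the early-only, 35.7% of the other early and 48.2% of the kept bins. At 40 to 45% these shares were 26.2%, 30.4% and 42.9%, at 45 to 50% they were 19.6%, 28.03% and 37.4%, and at 50 to 55% they were 19.2%, 25.8% and 36.7%. At 55% or more, 0 of 8 early-only bins had it, too few to compare with 24.9% of the other early and 31.7% of the kept bins. In all bins the share fell with GC content as well. It was 11.4% below 40%, then 9.52%, 7.87% and 5.75% in the next classes, and 4.69% at 55% or more.

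Within the first hour early-only bins with the consensus peaked later than those without. The mean of the 165 bins with it was 3.84 at 10 min, 17.8 at 30 min and 19.7 at 60 min, and that of the 503 bins without it was 5.36, 19.4 and 18.02. The 60 min value was above the 30 min value in 100 of the 165 bins (60.6%, interval 52.7 to 68.1%) and in 218 of the 503 (43.3%, 39.0 to 47.8%). The other early bins had the same order, with 62.6% and 52.6%. Early-only bins with the RUNX motif were higher at 60 than at 30 min in 22 of 69 cases (31.9%, 21.2 to 44.2%), against 49.4% of those without it, and in the other early bins these shares were 53.4% and 55.8%. The 30 and 60 min values took part in the rule, so these counts are a description.

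PU.1 was at a low level in most of the early-only bins. In the PU.1 library of 0 hpi 31 bins (4.64%, interval 3.17 to 6.52%) had 15 or more normalized reads, against 0.254% of all bins and 20.5% of the other early bins. The median was 1.42 and 4.25 in the early-only and other early bins, and 8.51 in the kept bins. At an early C/EBPα maximum of 15 to 20, a value the rule used, PU.1 was at 15 or more in 4.59% of the early-only bins (2.70 to 7.25%) and in 16.8% of the other early bins (15.7 to 17.98%), at 20 to 30 in 4.02% and 18.8%, and in the open class of 30 or more in 6.06% and 23.7%. The part of the early C/EBPα level in the difference was not tested. The share in the early-only bins was lower under stricter late limits. It was 1.23% of 162 bins (0.150 to 4.39%) with a limit of 2 at 3 to 48 hpi. With the limit of 4 on both neighbours it was 3.02% of 298 bins (1.39 to 5.66%). Both intervals overlap that of the reported share.

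Over the time course PU.1 reads in the early-only bins were highest at 3 hpi and lowest at 24 hpi. Their mean PU.1 level was 4.04 at 0 hpi (3.86 to 4.22) and 4.60 at 3 hpi (4.40 to 4.81). It was 3.54, 2.56 and 2.93 (2.80 to 3.06) in the last 3 libraries. The ratio of 48 to 0 hpi was 0.726 (0.681 to 0.773), against 0.956 (0.949 to 0.962) in the other early bins and 1.19 (1.18 to 1.21) in the kept bins. The 31 bins that had PU.1 at 0 hpi held much of it, with a mean of 38.1 at 0 hpi, 39.5 at 3 hpi, 28.5 at 12 hpi, 17.5 at 24 hpi and 23.8 at 48 hpi. Of these, 28 were lower at 48 than at 0 hpi, a direction that choosing bins by their 0 hpi value favours, and so were 2154 of 3235 other early bins and 585 of 1160 kept bins chosen in the same way. In the 637 other early-only bins the means of 0 and 48 hpi were 2.38 and 1.91.

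The bins with PU.1 behaved unlike one another. The intronic bin of chromosome 8 nearest *Gm5373* held 58.1 normalized PU.1 reads at 0 hpi, 54.8 at 3 hpi, 28.9 at 12 hpi, 19.4 at 24 hpi and 6.69 at 48 hpi. C/EBPα in this bin was at 43.1 at 30 min, 39.4 at 60 min and 3.59 at 3 hpi. C/EBPα was low from 3 hpi and PU.1 at 48 hpi, but only 57.3% of its 36-base reads are unique, and 57 of its 77 reads at 60 min were on the minus strand. The bin nearest *Nck1*, an adaptor of receptor tyrosine kinases, kept PU.1 throughout, with 36.9, 44.1, 47.6, 32.6 and 71.7 from 0 to 48 hpi. Its C/EBPα reads numbered 2, 4, 23 and 60 up to 60 min and 1, 0, 3 and 2 later. The intronic bin nearest *Camk2d*, a calcium-dependent kinase, had PU.1 at 26.9 at 0 hpi and 41.1 at 3 hpi, and C/EBPα at 33.1 at 30 min and 11.3 at 60 min. Over the 31 bins C/EBPα was higher at 60 than at 30 min in 8 (25.8%, 11.9 to 44.6%), and over the other 637 in 310 (48.7%). In the other early bins these shares were 35.4% and 60.7%.

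The early-only bins lay between the genome and the other bound bins in their distance from promoters. The median distance to the nearest TSS of a protein-coding gene was 30.3 kb, against 20.6 kb for the other early and 15.6 kb for the kept bins, and 58.5 kb for every 500th bin of the genome. Within 1 kb of a TSS were 26 bins (3.89%, interval 2.56 to 5.65%), where 8.94% of the other early, 12.8% of the kept and 27.9% of the late-only bins were, and 2.40% of every 500th bin. Late-only bins are the 4150 bins with the opposite course, at 4 or less in the first hour and 15 or more in at least 1 later library. Of the early-only bins 337 were intergenic (50.4%, against 61.4% of every 500th bin), 299 intronic (44.8% against 34.4%), 14 in coding exons (2.10% against 2.41%) and 18 in UTRs (2.69% against 1.81%). The other early bins were 46.1% intergenic and 47.0% intronic. Of every 500th bin 72.7% had at least 90% unique 36-base reads, against 94.3% of the early-only bins. The part of this in the comparisons with every 500th bin, here and below, was not tested.

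The 668 bins had 537 different nearest genes. Of these, 161 (30.0%) were also nearest to a kept bin, which is 9.10% of the 1769 genes nearest to kept bins. By bins, 196 of the 668 (29.3%, interval 25.9 to 32.96%) had a nearest gene that was also nearest to a kept bin, against 45.9% of the other early bins that were not kept themselves and 15.2% of every 500th bin. The median distance from an early-only bin to the closest kept bin was 242 kb, against 92 kb for those other early bins and 673 kb for every 500th bin. A kept bin lay within 10 kb of 46 early-only bins (6.89%, 5.09 to 9.08%), of 23.9% of those other early bins and of 1.61% of every 500th bin.

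Of 33 listed B-lineage genes, 4 were nearest to 5 early-only bins (0.749%, interval 0.243 to 1.74%), where the list took 0.715% of the other early and 0.187% of the kept bins and 0.174% of every 500th bin. The share was thus close to that of the other early bins, and it rests on 5 bins. *Vpreb2*, which codes for a part of the surrogate light chain of the pre-B cell receptor, had 2 bins, 10.8 and 11.2 kb from its TSS. The nearer had C/EBPα at 23.1 at 30 min, 16.9 at 60 min and 2.70 at 3 hpi. *Cd22*, an inhibitory receptor of B cells, had a bin with the consensus 10.7 kb away, at 15.4 at 30 min, 4.61 at 60 min and 0 at 3 hpi. *Bach2*, a repressor that guides B cell differentiation, had one 6.88 kb away, at 18.5 at 30 min and 10.2 at 60 min. The bin nearest *Lef1*, a factor of early B and T cells, was 164 kb from its TSS, at 13.8 at 30 min and 18.9 at 60 min. The bins near *Vpreb2*, *Cd22* and *Bach2* were highest at 30 min.

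Of 40 macrophage and myeloid genes with an annotated TSS, 1 was nearest to an early-only bin (0.150% of bins, interval 0.00379 to 0.831%), against 117 of the other early (0.741%), 48 of the 3201 kept bins (interval 1.11 to 1.98%) and 0.239% of every 500th bin. It was *Tlr4*, the receptor for lipopolysaccharide, with a bin 27.1 kb away that had 1, 8, 26 and 45 C/EBPα reads up to 60 min and 3, 0, 0 and 2 later. Of 20 immediate early genes, *Myc* had 1 bin 2.52 kb from its TSS, in a UTR, so that the list took 0.150% of the early-only bins, against 0.532% of the other early bins, 0.937% of the kept bins and 0.138% of every 500th bin. It had 3, 3, 8 and 41 C/EBPα reads at 0 hpi, 10, 30 and 60 min, of which 40 at 60 min were on the plus strand and 1 on the minus strand, so that it was 1 of the 2 bins at 15 or more at 60 min with 90% or more of their reads on 1 strand. None of 9 classical estrogen-responsive genes was nearest to an early-only bin, and 0.0890% of every 500th bin lay nearest to one of them.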

How the data were processed

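ChIP-seq reads from C10 cells were used, 1 library for each time of C/EBPα, PU.1 or C/EBPβ. The authors mapped them to mm9, allowing no mismatch in ELAND or Bowtie, and dropped reads that were identical or had several alignments. The submitters' processing notes also name HOMER. Versions and the aligner of each library are not given in the sources used here. The authors deposited 1 line per aligned read with its position and strand, so that the deposited values are unnormalized read positions. No control library was used here.

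Chromosomes 1 to 19 were cut into bins of 200 bp from position 0. In each library 1 read per position and strand was kept, which removed 2.51% of the C/EBPα reads at 3 hpi and at most 0.188% elsewhere, and 1 PU.1 line without a position was left out. Reads on unplaced contigs were left out too. The 5' ends were moved 75 bp inward and counts were scaled to 10000000 reads. Depth ranged from 2903580 to 24917810 kept reads. Uniqueness was computed from mm9 for reads of 36, 40 and 50 bases. Annotations came from the protein-coding part of GENCODE vM1 on NCBIM37, which is the build of the reads. Motifs were exact matches on both strands within a bin, and coordinates count from 1. The motifs without spelled letters in the text were 10 bases long or more.

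The rule, the gene lists and the motifs were chosen with earlier results of these data known. Named bins were the 10 highest early bins, the 6 highest with the C/EBP consensus, with PU.1 at 0 hpi or with 90% unique 36-base reads, the 3 longest stretches and those nearest a listed gene (12 at most), of which the text describes a part. The bins near *Faf1*, *Hipk1* and *Eea1* lie outside this rule and were named after their C/EBPβ values were seen. Bins of chromosome 18 were counted and not named. The steps were tested on simulated data. NumPy 2.4.6, SciPy 1.17.1 and pandas 2.3.3 were used.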

Additional observations from a re-analysis of the deposited data

How the results depend on the processing

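No paired analysis was possible because each factor and time had 1 library. The alternatives were all reads as deposited, ends moved by 0.5 of each library's fragment length, bins from position 100, scaling to reads outside bound bins, thinning to 5970869 reads, other thresholds and limits, bins of at least 90% unique reads, and 1 C/EBPα library left out. Of 17 alternatives 11 kept the number of early-only bins within 1.5 times of 668. It was 1157 with C/EBPα libraries thinned to the smallest, 298 at a threshold of 20, 1869 at a threshold of 10, 162 at a limit of 2, and 298 with the limit on both neighbours. Leaving out 1 library gave 464 (without 60 min) to 3116 (without 3 hpi). The C/EBP consensus was in 31.5% at a limit of 2, in 30.9% with the limit on both neighbours, and in 20.9% (without 60 min) to 26.8% (without 3 hpi) without 1 library, where the other settings stayed within the interval of the reported share. PU.1 at 0 hpi reached 15 in 1.23% and 3.02% under the same pair of limits. The median of C/EBPα at 0 hpi was 1.13 with all reads, 1.67 after thinning and 1.14 with scaling to unbound reads, where 1 read stands for about that much. C/EBPβ at 3 hpi reached 15 in 0% to 5.55% of bins without 1 library, the highest without the 3 hpi library of C/EBPα. The median of unique reads was the same under all 17. At 12 hpi the limit of 4 normalized reads stood for 2.39 reads, and without replicates no difference between 2 libraries could be separated from the variation between experiments. The cause of these shifts was not tested.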
